A study of Ovis aries with 30 samples.

Results

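Fetal sheep lung was compared with fetal sheep kidney at day 90 of gestation, across all genes that an Affymetrix bovine expression array names. The comparison took 10 of the 30 arrays of the series, 5 of lung and 5 of kidney, chosen by the tissue and age in their titles and by no measured value. The other 20 arrays hold the same tissues at 10 weeks after birth and in adults, 5 a group, and are used below only to set the fetal difference beside the later ones. Every animal was a sheep (Ovis aries), and the labels give no breed, sex, genotype or treatment for any group. Tissue was frozen whole, so each array averages every cell type of the organ. The study's title asks how the pace of a genetic program that limits growth differs between mammals of different size. The design text calls the 5 arrays of a group biological replications, and the labels do not say whether an array holds 1 animal or a pool. The lung arrays carry the labels 10A, 14A, 14B, 26B and 80B, and the kidney arrays 10A, 14A, 19A, 26A and 80B. The labels do not state that a shared label marks a shared animal. Lung 14A and 14B share a number, as do lung 26B and kidney 26A, and what the number stands for is not stated.

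Values are log2 expression after RMA, the array method that corrects background, equalises the arrays' distributions and joins the probes of a set, so a difference of 1 unit is a doubling of signal. Each of the 9155 genes was read from 1 probe set, the brightest on average across the 30 arrays. Because the probes match cattle sequence, sheep transcripts that diverge from it give a weaker signal, and levels are compared between arrays and not between genes. A gene is called when its Benjamini-Hochberg adjusted p from limma is under 0.05. Differences are lung minus kidney with their standard error, group means carry the SD over 5 arrays, and folds are 2 to the power of the difference. In whole tissue, fewer cells of a type and less RNA per cell cannot be told apart.

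At this stage the fetal lung is a branching tree of fluid-filled tubes in a vascular mesenchyme, and its distal epithelium is beginning to form the flat alveolar type I cells of gas exchange and the surfactant-making alveolar type II cells. The kidney forms by a different route: the ureteric bud branches into the collecting ducts and induces the surrounding mesenchyme to become nephrons, whose glomeruli filter plasma and whose tubules recover solutes. In sheep, nephron formation is completed before birth, so the fetal kidney holds mature tubules beside new ones. Hox genes record position along the body axis and are used in the kidney to pattern its mesenchyme.

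Both tissues carried their defining transcripts. The surfactant protein gene SFTPC read between 9.30 and 11.59 in the 5 lung arrays and between 5.12 and 6.35 in the kidney arrays. UMOD, which encodes the uromodulin of the thick ascending limb, read between 11.17 and 11.60 in kidney and between 5.07 and 5.70 in lung. Of the 38 genes chosen to be described whatever their values, 16 had no probe set that named them alone, among them NKX2-1, PAX2, SIX2 and WT1.

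Lung arrays 26B and 80B stood apart from the other 3 lung arrays and carried transcripts of liver and of red blood cell precursors. The mean level of 43 liver secreted proteins and enzymes was 10.71 in 26B and 9.20 in 80B. It was 6.82, 6.45 and 6.35 in 10A, 14A and 14B, and between 6.56 and 6.76 in the 5 kidney arrays. The 16 erythroid genes followed the same order, with 9.51 in 26B, 8.09 in 80B, 6.95 to 7.09 in the other lung arrays and 6.78 to 6.91 in kidney. Genes of lung cells were lower in 26B: the mean of 11 alveolar type I genes was 7.42 there and between 8.25 and 8.57 in the other 4 lung arrays. The 31 proximal tubule genes, many of which liver also expresses, averaged 7.63 in 26B, 6.97 in 80B and 6.16 to 6.29 in the other lung arrays, against 8.47 to 8.62 in kidney. The correlation between arrays across genes was 0.994 to 0.996 within the 3 other lung arrays, 0.993 to 0.995 within kidney, and as low as 0.906 when 26B and 80B were included. Where the liver transcripts came from was not tested, nor whether 10A, 14A and 14B are free of them. Results are therefore given for all 5 lung arrays and, as the repeat, for 10A, 14A and 14B against the same 5 kidney arrays. Where a gene below has no repeat value, its call was the same in the repeat and its difference moved by less than 0.5.

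**Figure D1:**
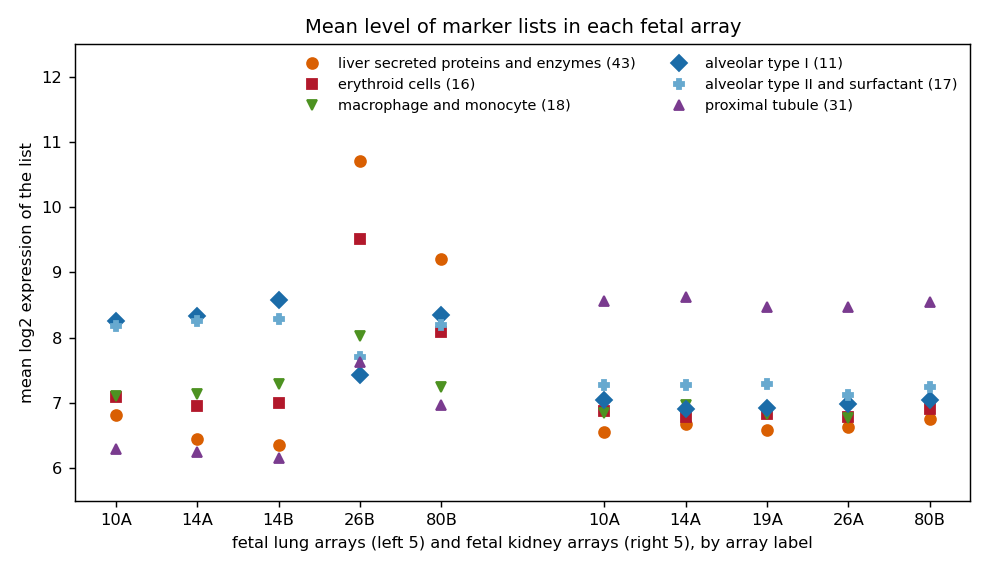
Mean log2 expression of 6 marker lists in each fetal array, 1 symbol per array and list, with the number of measured genes in the legend; the left 5 positions are lung arrays and the right 5 are kidney arrays. The liver list stands at 10.71 in lung 26B and 9.20 in lung 80B and at 6.82 or below in every other array, while the proximal tubule list stands between 8.47 and 8.62 in the kidney arrays.

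Some other probe sets of ALB and AHSG read higher in all 5 lung arrays than in kidney, and not in 26B and 80B alone. The probe set used for ALB, which encodes serum albumin, was flat, between 10.55 and 11.05 in all 10 arrays. One of its 8 other probe sets read 10.30, 9.53, 8.63, 12.89 and 12.66 in lung 10A, 14A, 14B, 26B and 80B and between 4.17 and 5.39 in kidney. Another read 11.05, 10.42, 9.71, 13.01 and 13.02 in the same lung arrays and between 5.89 and 6.34 in kidney. On both, every lung array was above every kidney array and 14B was the lowest lung array. In lung at 10 weeks they read 6.36 to 8.7 and 7.51 to 8.38. In adult lung they read 8.38 to 9.7 and 8.64 to 10.15, so lung signal on them was not limited to the fetus. The rest of the 8 differed by -0.24 to 0.47 in the repeat. AHSG, the fetal plasma protein fetuin-A, was added to the named genes after its values were seen: its probe set in use was flat (10.09 to 10.79 in all arrays), while another read 11.91, 11.37, 10.36, 13.19 and 13.22 in lung and between 4.12 and 7.02 in kidney. That other AHSG probe set read 3.92 to 7.3 in lung at 10 weeks and 8.07 to 10.92 in adult lung. The values of ALB and AHSG in the comparison, -0.10 ± 0.10 and 0.00 ± 0.15, therefore rest on which probe set is read.

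Of the 9155 genes, 1759 were called, which is 19.2%. Lung was higher for 817 (8.92%) and kidney for 942 (10.3%). The repeat called 3676 genes (40.2%), 2070 higher in lung (22.6%) and 1606 higher in kidney (17.5%). The gene list counts below are to be read beside these shares of all genes. Leaving out lung 26B alone gave 3329 calls. The median SD of a gene was 0.23 over the 5 lung arrays, 0.10 over the 3 and 0.14 over the kidney arrays. Both fits called 1726 genes in the same direction and 0 in opposite directions. Every array of the repeat was also in the fit with all arrays, so opposite calls were unlikely from the start. The 0 is therefore no test of whether the calls are stable. The repeat lost 33 calls and added 1950, of which 1270 were higher in lung and 680 higher in kidney. The median difference over all genes was 0.03 with all arrays and 0.04 in the repeat.

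The largest differences lay on the kidney side. With all arrays, 64 called genes were higher in kidney by 3 units or more and 22 were higher in lung by as much. The repeat gave 96 and 16. At 1 unit or more the counts were 359 and 231 with all arrays and 474 and 303 in the repeat. All 5 lung arrays were above all 5 kidney arrays for 723 genes (7.90%) and the reverse held for 860 genes (9.39%). The 3 lung arrays of the repeat lay above all kidney arrays for 23.8% of genes and below them for 18.5%. Called in both fits without overlap between the 5 and 5 arrays were 1317 genes.

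**Figure D2:**
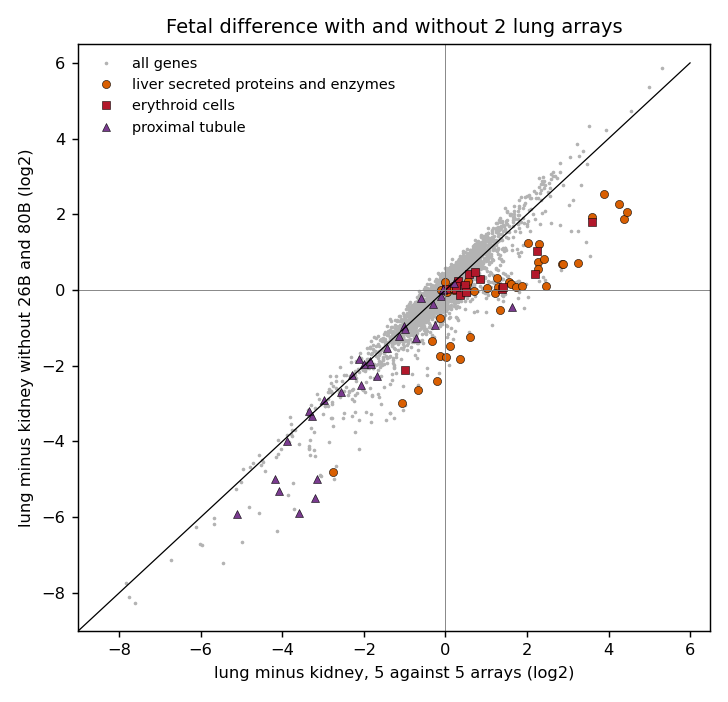
Each grey dot is 1 gene, with the lung minus kidney difference in log2 from 5 against 5 arrays on the horizontal axis and from the repeat without lung 26B and 80B on the vertical axis; the diagonal marks equal values. Many liver genes (orange circles) lie below the diagonal, with ITIH2 at 4.46 and 2.07, and several proximal tubule genes (purple triangles) move further to the kidney side, with FABP1 at -3.59 and -5.90.

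Read from the probe sets in use, with locus identifiers passed over, the lung gene with the largest difference in both fits was SFTPC. SFTPC encodes the surfactant protein made by alveolar type II cells. It read 11.59, 11.51, 11.37, 9.30 and 10.98 in lung 10A, 14A, 14B, 26B and 80B and 6.35, 5.72, 5.81, 5.15 and 5.12 in the kidney arrays. Every lung array was above every kidney array, and 26B was the lowest of the lung arrays. The difference was 5.32 ± 0.43, a fold of 39.9 (adjusted p = 1.32e-05), and 5.86 ± 0.25 in the repeat. The AHSG probe set not in use that is described above differed by more in the repeat, 6.01. MEOX2, a homeobox factor of mesenchyme and vessels, read 10.76, 10.85, 10.83, 8.72 and 11.09 in lung and 5.41, 5.47, 5.24, 5.19 and 5.97 in kidney. Its difference was 5.0 ± 0.41 (adjusted p = 1.40e-05) and 5.36 in the repeat, again with 26B lowest. PCOLCE2, an enhancer of procollagen processing, read 11.99, 11.97, 12.13, 10.84 and 12.30 against 7.0 to 7.67, a difference of 4.54 ± 0.25. BMP5, a secreted ligand of the bone morphogenetic protein family, read 10.88, 10.86, 10.85, 9.41 and 10.96 against 6.39 to 6.95, a difference of 3.95 ± 0.29. These 4 genes share a pattern in which 10A, 14A, 14B and 80B lie close together and 26B lies below them.

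Genes of plasma proteins and liver enzymes stood among the largest lung differences as well. ITIH2, which encodes a heavy chain of the plasma inter-alpha-trypsin inhibitor, read 6.90, 5.88, 5.58, 12.77 and 11.44 in lung and 3.81 to 4.30 in kidney. CPS1, the first enzyme of the urea cycle, read 7.26, 6.34, 6.16, 12.01 and 11.07 in lung and 4.18 to 4.44 in kidney. ARG1, the last enzyme of the urea cycle, read 6.75, 6.00, 5.92, 12.87 and 11.98 in lung and 3.64 to 5.5 in kidney. For all 3 genes 26B and 80B were the highest arrays, and 10A, 14A and 14B still lay above every kidney array. The differences of ITIH2, CPS1 and ARG1 were 4.46 ± 1.32, 4.25 ± 1.09 and 4.37 ± 1.38 with all arrays (adjusted p = 0.0386, 0.0203 and 0.0498) and 2.07 ± 0.25, 2.27 ± 0.21 and 1.89 ± 0.37 in the repeat. FETUB, a plasma protease inhibitor, and APOC3, an apolipoprotein of triglyceride-rich particles, gave 4.30 ± 1.16 and 3.88 ± 0.81, and 2.22 ± 0.29 and 2.54 ± 0.38 in the repeat. The calls of ITIH2, ARG1 and FETUB were lost in 6, 7 and 5 of the 10 fits that left out 1 array, with adjusted p up to 0.0803, 0.105 and 0.0594, and all 3 were called in the repeat. Within the repeat, ITIH2, CPS1 and ARG1 fell from 10A to 14A to 14B, as the liver list mean did (6.82, 6.45 and 6.35). Whether liver transcripts remain in the repeat was not tested.

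On the kidney side, read in the same way, the largest difference with all arrays was that of HOXD10, a posterior Hox factor. It read 4.36, 5.23, 4.49, 4.30 and 4.65 in lung and 12.44, 12.45, 12.40, 12.46 and 12.47 in kidney. The kidney arrays lay close together, all far above lung, and the difference was -7.84 ± 0.16, a fold of 229 (adjusted p = 1.03e-09), and -7.75 ± 0.16 in the repeat. FXYD2, the gamma subunit that tunes the sodium pump of kidney tubules, read 4.17, 4.49, 4.16, 5.63 and 4.68 in lung and 12.65, 12.63, 12.44, 12.43 and 11.79 in kidney, a difference of -7.76 ± 0.28 and of -8.11 ± 0.18 in the repeat. HOXA10 read 3.30, 3.65, 3.72, 6.75 and 3.66 in lung and 11.78, 11.73, 11.68, 11.94 and 11.95 in kidney. The 26B value of 6.75 stood 3 units above the other lung arrays, and the difference was -7.6 ± 0.57 with it and -8.26 ± 0.11 in the repeat, where HOXA10 and FXYD2 passed HOXD10. HOXA9 had the same shape, with 7.24 in 26B, 4.08 to 5.18 in the other lung arrays and 10.98 to 11.30 in kidney, a difference of -6.02 ± 0.48 (-6.70 ± 0.15 in the repeat).

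The other leading kidney genes included some known from tubules, such as UMOD and CLDN2. HAO2, a peroxisomal hydroxyacid oxidase, was higher in kidney by 6.72 ± 0.35 (lung 4.49 ± 0.86, kidney 11.21 ± 0.23). UMOD differed by -6.12 ± 0.13 (lung 5.32 ± 0.24, kidney 11.44 ± 0.18). CLDN2, the cation-permeable claudin of the proximal tubule, read 4.19, 3.77, 4.14, 7.07 and 4.77 in lung and 10.61 to 10.89 in kidney, a difference of -5.98 ± 0.53 (-6.73 ± 0.11 in the repeat). ANXA10, an annexin, and CDHR2, a cadherin of brush borders, differed by -5.68 ± 0.25 and -5.67 ± 0.43 (-6.01 ± 0.20 and -6.19 ± 0.15 in the repeat). S100G, the calcium carrier calbindin-D9k, read 7.0, 6.67, 6.44, 12.52 and 9.68 in lung against 13.86 to 13.96 in kidney. Its difference was -5.45 ± 1.03 (adjusted p = 0.00406) and -7.21 ± 0.11 in the repeat, since 26B and 80B read nearer to kidney than the other lung arrays did. Array 26B was the highest lung array for HOXA10, HAO2, CLDN2, CDHR2 and S100G, and kidney stayed above it for all 5.

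**Figure D3:**
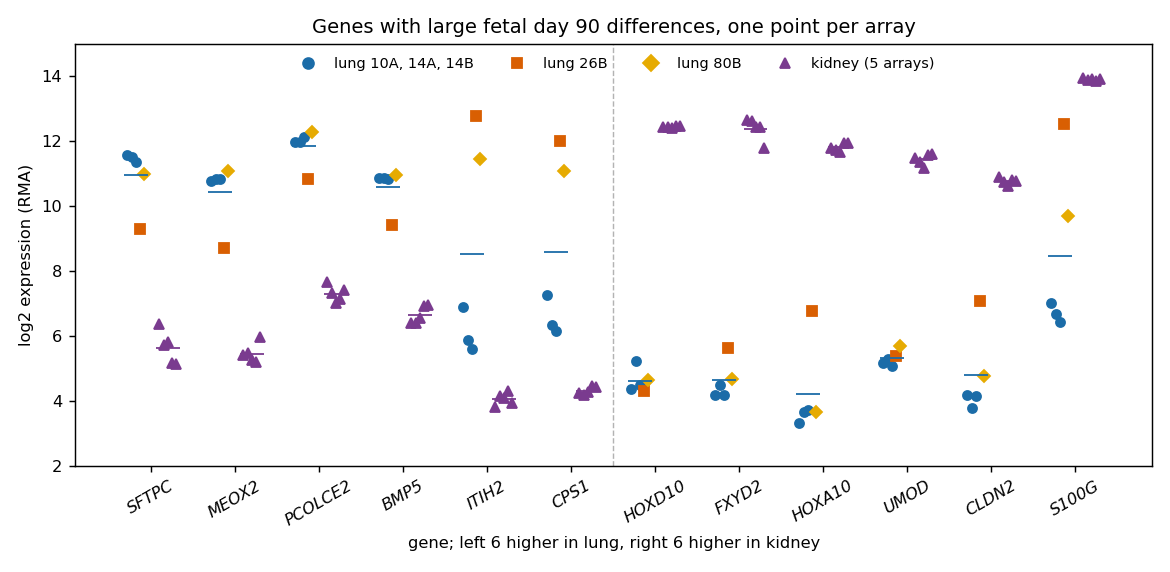
Log2 expression of 12 genes in each of the 10 fetal arrays, 1 symbol per array, with a short bar at the mean of the 5 arrays of a tissue; the left 6 genes are higher in lung and the right 6 higher in kidney. SFTPC, MEOX2, PCOLCE2 and BMP5 are lowest in lung 26B among the lung arrays, while ITIH2, CPS1 and S100G are highest there, at 12.77, 12.01 and 12.52.

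Among Hox genes, no measured member was called higher in lung with all arrays. Of 4 posterior genes 3 were higher in kidney, with a median over the 4 of -6.81, and they are HOXD10, HOXA10 and HOXA9 above. Of 7 anterior genes 3 were higher in kidney and 0 in lung, and the repeat gave 3 and 1. HOXC6 read 5.07 to 5.65 in lung and 7.33 to 7.94 in kidney, a difference of -2.34 ± 0.14. HOXC5 differed by -1.05 ± 0.11. HOXB4 was bright in both tissues and differed by -1.18 ± 0.33 (adjusted p = 0.0298), and by -0.81 ± 0.07 in the repeat. In lung it read 12.78, 12.82, 12.80, 10.95 and 12.78, with 26B alone below the rest, and its call was lost in 5 of the 10 fits that left out 1 array (adjusted p up to 0.0668 without kidney 10A).

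Of 14 measured lung patterning factors 8 were higher in lung and 1 in kidney, and the repeat gave 11 and 1, with medians of 0.77 and 1.0. FOXP2, a forkhead factor of the distal lung epithelium, read 9.75, 9.58, 9.59, 7.21 and 9.0 in lung and 5.51 to 6.21 in kidney. Its difference was 3.23 ± 0.44 (adjusted p = 4.93e-04) and 3.85 ± 0.16 in the repeat. HOPX, a homeodomain cofactor of alveolar progenitors, differed by 2.57 ± 0.12 and was as high in 26B (10.24) as in the other lung arrays (10.05 to 10.56). GATA6, a zinc-finger factor of endoderm and mesoderm, was bright in both tissues, at 12.30 ± 0.25 in lung and 11.49 ± 0.13 in kidney. ELF5, an epithelial factor of the Ets family that stands on both the lung list and the collecting duct list, was the member higher in kidney, by 1.42 ± 0.14.

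Genes of alveolar type II cells and surfactant split unevenly: 8 of 17 were higher in lung, 1 in kidney, and the median was 0.37 (9, 1 and 0.26 in the repeat). LAMP3, a membrane protein of lamellar bodies and lysosomes, read 8.39, 8.01, 8.13, 6.38 and 8.40 in lung and 4.18 to 4.93 in kidney, a difference of 3.37 ± 0.36. SFTPB, the surfactant protein needed to form lamellar bodies, differed by 2.60 ± 0.31 with all arrays and by 2.94 ± 0.12 in the repeat. The fatty acid transporter CD36, which endothelium and macrophages also make, differed by 1.91 ± 0.19. The SFTPC difference of 5.32 was thus well above those of the other named type II genes.

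Alveolar type I genes were called more evenly, with 6 of 11 higher in lung, 0 in kidney and a median of 0.79 (9, 0 and 1.08 in the repeat). AGER, the receptor for advanced glycation end products and a marker of type I cells, read 10.90, 11.05, 11.03, 9.08 and 11.10 in lung and 7.69 to 8.46 in kidney. Its difference was 2.65 ± 0.37 (adjusted p = 6.37e-04). CAV1, the scaffold of caveolae in type I and endothelial cells, read 10.99, 11.11, 11.22, 9.32 and 11.23 against 7.98 to 8.61, a difference of 2.45 ± 0.34. GPRC5A, an orphan receptor of lung epithelium, and the tight-junction gene CLDN18 differed by 2.35 ± 0.25 and 1.65 ± 0.22. CLDN18 read low on this array, between 4.04 and 5.33 in lung and between 2.91 and 3.20 in kidney.

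Of 12 measured airway genes 5 were higher in lung and 1 in kidney, and the repeat gave 8 and 1. AGR2, a protein disulfide isomerase of secretory cells, read 8.72, 9.21, 7.61, 9.48 and 8.31 in lung and 4.97 to 5.36 in kidney, a difference of 3.48 ± 0.30. Its highest lung array was 26B, whereas SFTPC, LAMP3, SFTPB, AGER and CAV1 were lowest there. TPPP3, a tubulin-binding protein of ciliated cells, differed by 2.82 ± 0.37 and by 3.36 ± 0.13 in the repeat. PIGR, which carries immunoglobulins across epithelia, was higher in kidney by 1.0 ± 0.25, with arrays that overlapped.

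In the lung mesenchyme, 6 of 13 smooth muscle genes were higher in lung and 0 in kidney (8 and 0 in the repeat). PLN, which restrains the calcium pump of muscle, differed by 2.52 ± 0.18. MYH11, the smooth muscle myosin heavy chain, read 9.80, 9.98, 10.01, 8.50 and 9.85 in lung and 7.6 to 8.16 in kidney, a difference of 1.78 ± 0.27. The calponin gene CNN1 differed by 1.29 ± 0.27 and by 1.62 ± 0.12 in the repeat.

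Of 29 collagen and elastic fibre genes 7 were higher in lung and 3 in kidney, and the repeat gave 17 and 5. Over all genes 8.92% were called for lung and 10.3% for kidney, and 22.6% and 17.5% in the repeat. The list's kidney counts lay near those shares and its lung counts above them. ELN, the precursor of elastic fibres, read 9.22, 9.64, 9.78, 7.99 and 9.46 in lung and 7.65 to 8.20 in kidney. It differed by 1.33 ± 0.30 (adjusted p = 0.0104) with 26B inside the kidney range, and by 1.66 ± 0.15 in the repeat. The proteoglycan gene BGN differed by 0.70 ± 0.11. The matrix genes POSTN, LTBP1 and LUM were higher in kidney, by 1.63 ± 0.29, 1.30 ± 0.22 and 0.87 ± 0.14. Among basement membrane genes, the laminin chains LAMA4 and LAMB3 were higher in lung by 1.35 ± 0.31 and 0.59 ± 0.11. COL4A3, a collagen chain of the glomerular basement membrane, and FREM1, a basement membrane protein needed for kidney formation, were higher in kidney by 2.09 ± 0.29 and 2.37 ± 0.23. Of the 14 measured members of that list, 2 were called in each direction, not far from the shares over all genes, and 10 were not called. The repeat gave 5 for lung and 2 for kidney.

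Endothelial genes gave 4 calls for lung and 2 for kidney among 26, and 15 and 2 in the repeat, with medians of 0.38 and 0.52. With all arrays both counts were not far from the shares over all genes, 8.92% and 10.3%. In the repeat the lung count was above the 22.6% of all genes and the kidney count below the 17.5%. CD34, a sialomucin of vessels, read 10.73, 10.72, 10.74, 10.50 and 10.72 in lung and 9.50 to 9.92 in kidney, a difference of 0.95 ± 0.09. S1PR1, a receptor for sphingosine-1-phosphate, differed by 0.55 ± 0.12. CA4, a carbonic anhydrase of lung capillaries and of kidney tubules, was higher in kidney by 0.98 ± 0.16. Of 6 lymphatic genes 2 were called with all arrays and 3 in the repeat, all for lung. CCL21, a chemokine of lymphatic vessels, differed by 1.94 ± 0.31. LYVE1, a hyaluronan receptor of lymphatic endothelium that liver sinusoids and some macrophages also carry, read 9.88, 9.10, 9.13, 11.34 and 10.11 in lung and 6.42 to 6.84 in kidney. Its difference was 3.33 ± 0.37 with all arrays and 2.78 ± 0.17 in the repeat, with 26B the highest lung array.

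The fetal lung secretes liquid by chloride transport, and sodium uptake through the epithelial sodium channel takes over near birth. Of 12 ion transport genes 3 were higher in lung and 5 in kidney (4 and 5 in the repeat). CFTR, the chloride channel, read 10.06, 10.23, 10.10, 10.68 and 10.45 in lung and 10.20, 9.60, 9.66, 9.82 and 9.86 in kidney. The groups overlapped, and the difference of 0.47 ± 0.15 (adjusted p = 0.0485) was not called in the repeat (0.30 ± 0.13, adjusted p = 0.0865) or in 7 of the 10 fits that left out 1 array. The sodium channel subunits SCNN1G and SCNN1A were higher in kidney, by 3.29 ± 0.20 and 1.21 ± 0.16. The water and glycerol channel AQP3 and the sodium pump subunit ATP1B1 were higher in kidney by 1.48 ± 0.16 and 0.61 ± 0.09.

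Ligands and receptors of branching did not follow the tissue in a simple way. FGF10, the mesenchymal ligand of lung branching, read 7.15, 7.35, 7.17, 5.83 and 7.65 in lung and 6.26 to 6.57 in kidney. It was not called with all arrays (0.55 ± 0.29, adjusted p = 0.218), with 26B below every kidney array, and was called in the repeat (0.74 ± 0.09, adjusted p = 1.11e-04). Its receptor FGFR2 read 8.84 to 9.84 in lung and 9.11 to 9.91 in kidney, a difference of -0.01 ± 0.21. ETV1, an Ets factor that responds to fibroblast growth factors, was higher in lung by 0.74 ± 0.08. FGFR4 was higher by 0.64 ± 0.17, a call lost in 4 of the 10 fits that left out 1 array (adjusted p up to 0.0662 without kidney 10A). Of the 14 genes of this pathway 2 were called with all arrays and 6 in the repeat, all for lung.

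SHH, which lung epithelium sends to its mesenchyme, read 5.04 to 5.22 in lung and 4.82 to 5.0 in kidney, a difference of 0.23 ± 0.07 that 8 of the 10 fits leaving out 1 array did not call (adjusted p 0.0425 with all arrays and up to 0.105). IHH, its paralogue, was higher in kidney by 1.61 ± 0.30 and by 2.03 ± 0.16 in the repeat. Of 6 hedgehog genes 1 was called for lung and 2 for kidney, and 3 and 2 in the repeat.

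Wnt pathway genes leaned to kidney, with 9 of 20 higher in kidney and 3 in lung (9 and 4 in the repeat). WNT2B, a mesenchymal ligand of early lung specification, read 7.82 to 8.23 in lung and 5.86 to 6.33 in kidney, a difference of 1.86 ± 0.11. The secreted inhibitor SFRP1, the R-spondin receptor LGR4 and the frizzled receptor FZD4 were higher in kidney by 2.18 ± 0.17, 1.52 ± 0.22 and 1.19 ± 0.14.

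Of 18 genes of bone morphogenetic protein and transforming growth factor signalling, 5 were higher in lung and 2 in kidney (10 and 3 in the repeat). The ligands split: BMP5 was higher in lung, as above, and BMP7, which nephron progenitors need to survive, was higher in kidney by 1.70 ± 0.30. BMPER, a secreted modulator of these ligands, read 9.87 to 10.13 in lung and 7.35 to 7.86 in kidney, a difference of 2.35 ± 0.11. INHBA, the activin beta A chain, was higher in kidney by 0.98 ± 0.09.

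Retinoic acid genes were called for kidney in 5 of 11 and for lung in 1 (6 and 2 in the repeat). CRABP1, a carrier of retinoic acid in the cytosol, read 8.66, 8.27, 8.17, 6.66 and 7.73 in lung and 11.59 to 11.87 in kidney, a difference of -3.82 ± 0.31. The receptor RXRG and the retinol dehydrogenase RDH10 were higher in kidney by 1.17 ± 0.13 and 1.11 ± 0.14, while the receptor RXRA was higher in lung by 0.59 ± 0.09. Of 6 Notch genes the 1 called with all arrays was MFNG, a glycosyltransferase that modifies Notch, higher in lung by 1.17 ± 0.20, and the repeat called 3 for lung and 1 for kidney.

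Among genes of nephron progenitors and early nephrons, 4 of 14 were higher in kidney and 2 in lung with all arrays, and 4 in each tissue in the repeat. EMX2, a homeobox factor of the urogenital system, read 4.73 to 5.80 in lung and 9.14 to 9.62 in kidney, a difference of -4.15 ± 0.19. OSR2, an odd-skipped factor, and PAX8, a paired-box factor of the early nephron, differed by -3.14 ± 0.27 and -1.04 ± 0.15. The members higher in lung with all arrays were MEOX2, described above, and CITED1. CITED1, a transcription cofactor known from uninduced nephron progenitors, read 8.81, 9.09, 9.20, 8.14 and 8.84 in lung and 6.22 to 6.80 in kidney, a difference of 2.22 ± 0.19 (adjusted p = 2.36e-05). GDNF, the ligand that draws out the ureteric bud, read 5.36 to 5.80 in lung and 5.79 to 5.86 in kidney, and its difference of -0.21 ± 0.09 was not called. Its receptor RET, on the bud tip, was higher in kidney by 1.15 ± 0.14.

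Ureteric bud and collecting duct genes were called for kidney in 13 of 21 and for lung in 4 (13 and 5 in the repeat). ATP6V0A4, a proton pump subunit of acid-secreting intercalated cells, read 4.55 to 5.76 in lung and 10.17 to 10.65 in kidney, a difference of -5.14 ± 0.21. TFAP2A, an AP-2 factor, read 7.88, 7.75, 6.01, 5.5 and 7.80 in lung and 11.83 to 12.09 in kidney. The lung arrays fell into a high set of 10A, 14A and 80B and a low pair of 14B and 26B, and the difference was -4.96 ± 0.45. HSD11B2, which shields the mineralocorticoid receptor from cortisol, differed by -3.78 ± 0.19.

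Podocyte and glomerular genes were called for kidney in 3 of 10 and in 5 in the repeat, among them COL4A3 and the phospholipase receptor PLA2R1 (-0.96 ± 0.21).

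Proximal tubule genes were called for kidney alone: 18 of 31 genes were higher in kidney and 0 in lung, and the repeat gave 23 and 0, with medians of -1.85 and -1.94. CUBN, the endocytic receptor cubilin, read 5.82, 6.43, 5.92, 9.53 and 6.66 in lung and 11.79 to 12.12 in kidney. Its difference was -5.10 ± 0.61 with all arrays and -5.92 ± 0.14 in the repeat. SLC34A1, the sodium-phosphate cotransporter of the brush border, read 5.72 to 6.39 in lung and 9.70 to 10.44 in kidney, a difference of -3.89 ± 0.17. The cystine transporter subunit SLC3A1, the sodium-proton exchanger SLC9A3 and the basolateral amino acid carrier SLC7A7 differed by -3.34 ± 0.20, -2.98 ± 0.14 and -2.57 ± 0.11. Array 26B did not read above the other lung arrays for SLC34A1, SLC3A1 and SLC9A3.

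The organic anion transporters of the proximal tubule were low in fetal kidney. SLC22A8 read 5.71, 6.24, 6.62, 5.81 and 7.20 in kidney and 4.20 to 4.81 in lung, a difference of -1.85 ± 0.26. SLC22A6 read 4.58, 4.86, 5.26, 5.0 and 5.03 in kidney and 4.47 to 4.74 in lung, and its difference of -0.31 ± 0.12 was not called (adjusted p = 0.105).

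Of 14 genes of the loop of Henle and distal tubule 8 were higher in kidney and 0 in lung (11 and 0 in the repeat). Besides FXYD2 and UMOD, the potassium channel KCNJ10 read 3.16 to 5.0 in lung and 8.15 to 8.63 in kidney, a difference of -4.42 ± 0.28. SLC12A3, the thiazide-sensitive sodium-chloride cotransporter, differed by -2.95 ± 0.12.

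Kidney stromal genes were called for kidney in 5 of 11 and for lung in 1, the muscle gene CNN1 (5 and 2 in the repeat). NTN4, a secreted netrin, was higher in kidney by 1.93 ± 0.28. Of 7 genes of the angiotensin system 3 were higher in kidney and 0 in lung in both fits. ENPEP, the aminopeptidase that cleaves angiotensin II, read 5.95 to 6.20 in lung and 9.15 to 9.59 in kidney, a difference of -3.34 ± 0.10. The proton pump accessory gene ATP6AP2 and the fetal angiotensin receptor gene AGTR2 differed by -0.75 ± 0.16 and -0.74 ± 0.14.

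**Figure D4:**
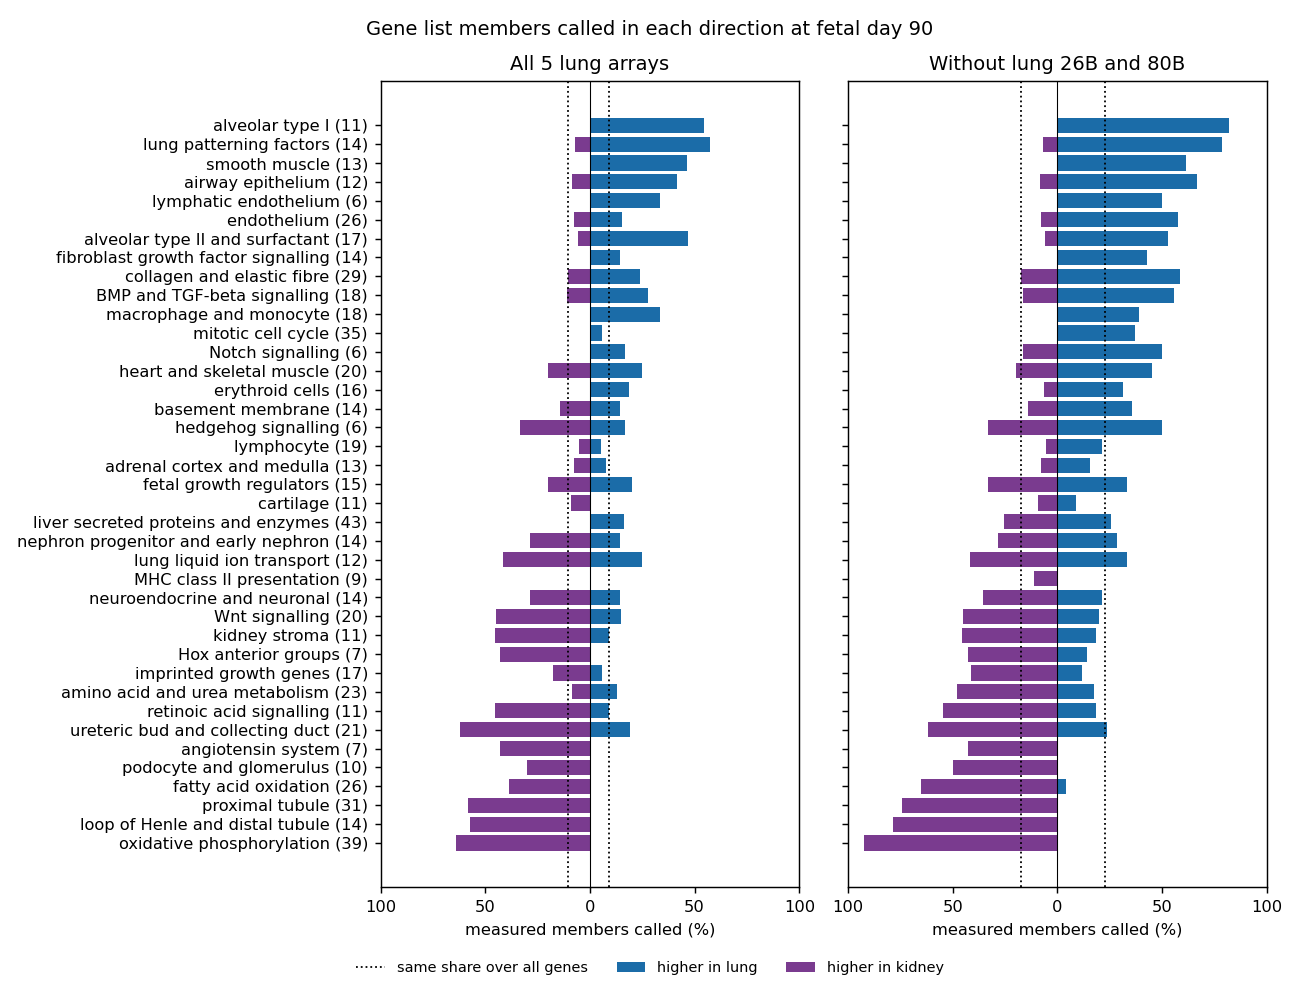
Share of the measured members of each gene list (lists with under 6 measured members left out) called higher in lung (blue, to the right) and higher in kidney (purple, to the left), in percent, with all 5 lung arrays on the left and without 26B and 80B on the right; numbers after a list name count its measured members, and dotted lines mark the shares over all genes, 8.92% and 10.3% on the left. Oxidative phosphorylation and the tubule lists extend furthest to the kidney side, and the alveolar type I and lung patterning lists furthest to the lung side.

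Genes of energy metabolism were called for kidney. Of 39 oxidative phosphorylation genes 25 were higher in kidney and 0 in lung, with a median of -0.44, and the repeat called 36 and 0. The differences were small and narrow in spread: the list ran from -1.38 to -0.15, so every measured member was on the kidney side of 0. SDHA, the flavoprotein of complex II, read 8.87, 8.88, 8.88, 9.76 and 8.68 in lung and 10.08 to 10.28 in kidney, a difference of -1.16 ± 0.18. NDUFA8, of complex I, and COX5A, of cytochrome c oxidase, differed by -0.86 ± 0.11 and -0.54 ± 0.10. Of 26 fatty acid oxidation genes 10 were higher in kidney and 0 in lung (17 and 1 in the repeat). PPARGC1A, a coactivator that raises mitochondrial gene expression, read 8.01, 7.87, 8.07, 11.11 and 9.05 in lung and 11.96 to 12.49 in kidney, a difference of -3.35 ± 0.54 and of -4.19 ± 0.11 in the repeat. The peroxisomal enzyme HSD17B4 and the mitochondrial enzyme HADH differed by -0.80 ± 0.09 and -0.67 ± 0.08. Among 23 genes of amino acid and urea metabolism the calls were 3 for lung and 2 for kidney with all arrays and 4 and 11 in the repeat. With all arrays both counts were not far from the shares over all genes, 8.92% and 10.3%. In the repeat the lung count was below the 22.6% of all genes and the kidney count above the 17.5%.

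Fetal growth regulators did not lean to 1 tissue. Of 15 such genes 3 were higher in each tissue, and 5 in each in the repeat. IGF2BP1, an RNA-binding protein of fetal tissues, read 8.24, 8.17, 8.20, 7.74 and 7.32 in lung and 5.62 to 6.33 in kidney, a difference of 1.90 ± 0.20. IGF1 was higher in lung by 0.67 ± 0.09, while the growth factor PTN and the binding protein IGFBP5 were higher in kidney by 1.89 ± 0.31 and 1.78 ± 0.36. Of 17 imprinted genes 1 was higher in lung and 3 in kidney, and the repeat gave 2 and 7. Over all genes the shares were 8.92% and 10.3%, and 22.6% and 17.5% in the repeat. In the repeat the list's lung share was thus below that of all genes and its kidney share above. PHLDA2, an imprinted restrainer of placental growth, read 4.83 to 5.70 in lung and 10.45, 9.15, 8.85, 10.09 and 9.92 in kidney, a difference of -4.53 ± 0.30. The cyclin-dependent kinase inhibitor CDKN1C was bright in both, at 11.78 ± 0.07 in lung and 12.43 ± 0.07 in kidney. NNAT, which encodes neuronatin, read 11.15, 11.15, 11.02, 14.01 and 12.37 in lung and 9.99 to 10.22 in kidney. Its difference was 1.85 ± 0.51 and 1.01 ± 0.08 in the repeat, and its call was lost in 6 of the 10 fits that left out 1 array (adjusted p up to 0.0626 without kidney 80B).

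IGF2, the main fetal growth factor, read 12.27, 12.43, 12.35, 11.66 and 12.12 in lung and 11.60, 12.10, 11.33, 11.37 and 11.74 in kidney. The groups overlapped, and its difference of 0.54 ± 0.18 was not called with all arrays (adjusted p = 0.0627) and was called in the repeat at 0.72 ± 0.16 (adjusted p = 0.00434). MEST, another imprinted gene, was not called with all arrays (-0.24 ± 0.10, adjusted p = 0.128) and was called in the repeat (-0.33 ± 0.09, adjusted p = 0.0147). DLK1, a membrane protein of fetal progenitors, was higher in kidney by 0.52 ± 0.15 with all arrays (adjusted p = 0.0305) and by 0.71 ± 0.10 in the repeat, and its call was lost in 7 of the 10 fits that left out 1 array (adjusted p up to 0.0764 without kidney 10A).

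Of 35 mitotic genes 2 were higher in lung and 0 in kidney, below the 8.92% of all genes called for lung, and the repeat called 13 and 0, above the 22.6% there. CDK1, the kinase of entry into mitosis, read 9.57, 8.79, 8.55, 9.95 and 8.99 in lung and 8.80 to 9.08 in kidney, and was not called in either fit (0.26 ± 0.24 and 0.06 ± 0.19). The replication helicase gene MCM4 and the centromere gene CENPF were the members called with all arrays, at 0.64 ± 0.18 and 1.06 ± 0.33 (adjusted p = 0.0303 and 0.0498), with 26B highest for both. Their calls were lost in 6 and 7 of the 10 fits that left out 1 array (adjusted p up to 0.0725 and 0.110), and both were called in the repeat.

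Macrophage genes were higher in lung in 6 of 18 and in kidney in 0 (7 and 0 in the repeat). CD68, a lysosomal protein of macrophages, read 8.15, 8.21, 8.35, 9.05 and 8.19 in lung and 7.30 to 7.62 in kidney, a difference of 0.88 ± 0.17 and of 0.72 ± 0.09 in the repeat. The complement gene C1QB, the receptor CSF1R and the signalling adaptor TYROBP differed by 1.14 ± 0.31, 0.65 ± 0.19 and 0.70 ± 0.21, with 26B highest for all 3. Their calls were lost in 5, 4 and 7 of the 10 fits that left out 1 array (adjusted p up to 0.0684, 0.0859 and 0.0999), and all 3 were called in the repeat, at 0.82 ± 0.16, 0.45 ± 0.10 and 0.44 ± 0.12. The mean of the 18 genes was 8.02 in 26B, 7.11 to 7.29 in the other lung arrays and 6.77 to 7.0 in kidney, and the part of the liver transcripts of 26B in these values was not tested. Lymphocyte genes gave 1 call for each tissue among 19 (4 for lung and 1 for kidney in the repeat). These shares were below those over all genes, 8.92% and 10.3%, and 22.6% and 17.5% in the repeat. For MHC class II presentation, limma called 0 of 9 genes with all arrays, 1 of them with an unadjusted p under 0.05. The repeat called 1 of these 9, for kidney.

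Red cell genes gave 3 calls for lung and 0 for kidney among 16 with all arrays, and 5 and 1 in the repeat. AHSP, the chaperone of alpha globin, read 8.77, 7.51, 7.72, 12.51 and 12.40 in lung and 6.33, 5.46, 6.10, 6.25 and 6.81 in kidney. Its difference was 3.59 ± 1.0 and 1.81 ± 0.32 in the repeat. The heme enzyme ALAS2 differed by 2.25 ± 0.71 and by 1.02 ± 0.12 in the repeat. Both calls were lost in 6 of the 10 fits that left out 1 array (adjusted p up to 0.0673 and 0.103). HBB, beta globin, read 13.33 to 13.57 in every lung array and 13.41 to 13.52 in kidney on the probe set used, while a dimmer probe set of HBB read 9.14 in 26B and 7.87 in 80B against 5.72 to 6.35 in kidney.

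Marker lists of neighbouring tissues were read for the same arrays. Of 20 heart and skeletal muscle genes 5 were higher in lung and 4 in kidney (9 and 4 in the repeat). The fast skeletal troponin TNNT3 differed by 1.95 ± 0.23 and alpha-actinin 2, encoded by ACTN2, by 0.94 ± 0.10, while cardiac actin ACTC1 and cardiac troponin TNNT2 were higher in kidney by 2.99 ± 0.16 and 1.48 ± 0.12. Of 13 adrenal genes 1 was called for each tissue, and the repeat gave 2 for lung and 1 for kidney. These shares were below those over all genes, 8.92% and 10.3%, and 22.6% and 17.5% in the repeat. CYP17A1, a steroid hydroxylase, read 6.90, 7.11, 7.67, 8.56 and 6.66 in lung and 4.72 to 5.69 in kidney, a difference of 2.15 ± 0.33 and of 2.0 ± 0.22 in the repeat. The steroid dehydrogenase HSD3B1 was low in both, at 4.24 ± 0.08 in lung and 4.82 ± 0.20 in kidney. Neuronal genes gave 2 calls for lung and 4 for kidney among 14 (3 and 5 in the repeat): STMN2, a microtubule regulator of neurons, was higher in lung by 1.85 ± 0.38 (2.45 ± 0.17 in the repeat), and the RNA-binding ELAVL4 and the decarboxylase DDC were higher in kidney by 3.36 ± 0.17 and 1.39 ± 0.30. Cartilage gave 1 call among 11 with all arrays, COL11A1, higher in kidney by 1.86 ± 0.31, and mesothelium 1 among 3, UPK1B, higher in kidney by 1.42 ± 0.22. Whether other tissue was present in the samples was not tested.

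The genes with the largest differences whose call changed when 26B and 80B were left out include 8 that were called for kidney only in the repeat. All 8 were bright in kidney and brighter in lung 26B and 80B than in the other lung arrays. PLA1A, a phospholipase, read 6.41, 5.96, 5.74, 12.56 and 9.87 in lung and 11.75 to 11.90 in kidney. FABP1, the liver-type fatty acid carrier, read 6.07, 5.58, 5.02, 12.20 and 10.46 in lung and 11.34 to 11.63 in kidney. AFP, the fetal serum protein alpha-fetoprotein, read 8.67, 7.79, 7.18, 13.24 and 12.74 in lung and 12.41 to 12.99 in kidney. In all 3, lung 26B lay above every kidney array and 10A, 14A and 14B lay far below. Their differences were -3.71 ± 1.18, -3.59 ± 1.28 and -2.76 ± 1.13 with all arrays (adjusted p = 0.0518, 0.0781 and 0.120) and -5.78 ± 0.13, -5.90 ± 0.19 and -4.81 ± 0.27 in the repeat. The tyrosine-degrading enzymes HPD and HGD, the cystine transporter SLC7A9, the secreted peptide gene LEAP2 and the diamine oxidase gene AOC1 behaved alike, with differences of -3.20, -2.74, -3.14, -3.07 and -3.05 with all arrays and of -5.5, -4.98, -5.0, -4.88 and -4.92 in the repeat.

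On the lung side, TDO2, a tryptophan-degrading enzyme of liver, read 4.51, 4.15, 3.80, 11.84 and 9.14 in lung and 3.27 to 3.58 in kidney. It was not called with all arrays (3.25 ± 1.42, adjusted p = 0.144) and was called in the repeat at a smaller size (0.71 ± 0.14, adjusted p = 0.00234). The plasma proteins SPP2, SERPINA7 and TTR followed, with 3.45 ± 1.21, 3.55 ± 1.47 and 2.43 ± 0.90 with all arrays, none called, and 1.26 ± 0.16, 0.91 ± 0.26 and 0.81 ± 0.21 in the repeat, all called. SERPINA1, the protease inhibitor alpha-1 antitrypsin, was called with all arrays (2.29 ± 0.70, adjusted p = 0.0429) and not in the repeat (1.22 ± 0.45, adjusted p = 0.0544). Of the 43 liver genes, 7 were called for lung and 0 for kidney with all arrays, and 11 and 11 in the repeat, with medians of 1.21 and 0.11. Over all genes the shares were 8.92% and 10.3%, and 22.6% and 17.5% in the repeat. In the repeat the list's lung count was thus near that share and its kidney count above it.

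The tissue differences at the later ages come from other arrays, so the calls can be set side by side. Of the 817 genes called for lung in the fetus, 567 (69.4%) were also called for lung at 10 weeks, where 24.6% of all genes were. Those 567 were 25.2% of the 10-week lung list. For kidney, 671 of 942 fetal calls (71.2%) were called for kidney at 10 weeks, where 23.6% of all genes were, and they were 31.1% of that list. In adults the shares were 74.4% for lung, where 30% of all genes were called, and 70.5% for kidney, where 24.5% were. Opposite calls at 10 weeks were fewer, 28 for lung (3.43%) and 96 for kidney (10.2%). With the calls of the repeat, the shares shared at 10 weeks were 57.2% for lung and 69.2% for kidney, and those genes were 52.6% and 51.5% of the later lists.

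Whether the fetal difference departed from the later ones was tested as an interaction over all 30 arrays, with 1 spread for all 6 groups. The fetal lung arrays of some genes, such as ITIH2, ARG1 and FETUB, vary more widely than that spread. For such genes the standard error of the interaction is understated. Against 10 weeks 2498 genes were called (27.3%), 1210 with the fetal difference nearer to lung (13.2%) and 1288 nearer to kidney (14.1%). Against adults 2659 were called (29.0%), 1133 nearer to lung (12.4%) and 1526 nearer to kidney (16.7%). Of the 31 proximal tubule genes, 19 were shifted towards lung in the fetus relative to 10 weeks and 2 towards kidney, and in 26 fatty acid oxidation genes the counts were 22 and 0. Macrophage genes ran the other way, 0 and 15 of 18, as did lymphocyte genes, 0 and 13 of 19, collagen and elastic fibre genes, 1 and 18 of 29, and the alveolar type I and type II lists, 0 and 9 of 11 and 0 and 9 of 17. Without 26B and 80B the proximal tubule and macrophage counts were 19 and 2 and 0 and 15.

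Several genes with a large tissue difference later had a small one in the fetus. SLC22A6 stood at 11.68 ± 0.27 in kidney and 4.93 ± 0.31 in lung at 10 weeks, a difference of -6.75 against -0.31 in the fetus. The interaction was 6.44 ± 0.28 (adjusted p = 1.30e-15) and 6.39 without 26B and 80B. SLC22A8 went from -1.85 in the fetus to -7.39 at 10 weeks (interaction 5.55 ± 0.31, and 5.52 without the pair). KCNE1, a potassium channel subunit, had differences of -0.55, -2.57 and -4.89 at the 3 ages. Its fetal call was lost in 6 of the 10 fits that left out 1 array (adjusted p 0.0407 with all arrays and up to 0.0968). In lung, HTRA4, a serine protease, read 7.96 ± 0.87 in the fetus and 12.28 ± 0.37 at 10 weeks, with kidney at 5.32 ± 0.28 and 4.20 ± 0.23. Its differences were 2.64, 8.08 and 7.80, and the interaction with 10 weeks was -5.44 ± 0.39 (-4.96 without 26B and 80B). LPO, an airway peroxidase, PON1, a lactonase of plasma, and CYP4B1, a lung cytochrome P450, had fetal differences of 0.48, 0.77 and 0.62 and 10-week differences of 4.97, 4.91 and 4.52. Their fetal calls were lost in 3, 7 and 7 of the 10 fits that left out 1 array (adjusted p up to 0.0555, 0.0948 and 0.0688), and their interactions with 10 weeks were -4.49 ± 0.26, -4.14 ± 0.52 and -3.90 ± 0.24, all called with and without 26B and 80B.

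Other genes were higher in kidney in the fetus and higher in lung later. FAP, a surface protease of fibroblasts, differed by -1.99 in the fetus (lung 5.93 ± 0.51, kidney 7.92 ± 0.21) and by 3.57 at 10 weeks (lung 8.48 ± 0.36, kidney 4.91 ± 0.59). S100A4, a calcium-binding protein of motile and immune cells, differed by -2.78, 1.65 and 2.57 at the 3 ages, TNFAIP6, a hyaluronan-binding protein, by -1.11, 3.84 and 3.66, and CRABP1 by -3.82, 1.26 and 2.68. The interactions with 10 weeks of FAP, S100A4, TNFAIP6 and CRABP1 were -5.56 ± 0.41, -4.43 ± 0.33, -4.94 ± 0.30 and -5.08 ± 0.40, and -5.58, -4.36, -5.02 and -4.61 without 26B and 80B. NPVF, a precursor of RFamide neuropeptides, was high in fetal kidney alone among the 6 groups: it read 8.62, 9.15, 9.60, 8.31 and 9.72 there and 3.94 to 4.41 in fetal lung, and its means were between 3.83 and 4.18 in the 4 later groups. Its interaction with 10 weeks was -5.24 ± 0.27 (adjusted p = 9.71e-14), and -5.33 without 26B and 80B.

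In a further set of genes the fetal difference lay nearer to lung than the differences at later ages. GAS2, a cytoskeletal protein, read 10.35, 10.55, 10.55, 9.06 and 10.30 in fetal lung and 7.03 to 7.50 in fetal kidney, with differences of 2.81, 0.10 and -1.53 at the 3 ages. The interaction with adults was 4.34 ± 0.32, and 4.66 without 26B and 80B. DLK1 had differences of -0.52, -2.42 and -5.83, and its lung level was 12.61 ± 0.31 in the fetus, 9.92 ± 0.71 at 10 weeks and 6.30 ± 0.49 in adults while kidney stayed between 12.14 and 13.13. APOC3 had differences of 3.88, 0.87 and -2.04, and its interaction with 10 weeks was 3.01 ± 0.90 (adjusted p = 0.0124) and not called without 26B and 80B (1.68, adjusted p = 0.0745). The interactions with 10 weeks of ITIH2, ARG1 and FETUB, whose differences at 10 weeks were 0.18, -0.11 and -0.07, were 4.28 ± 1.19, 4.48 ± 1.22 and 4.37 ± 1.08, and 1.89, 2.0 and 2.29 without the pair. SERPINA1 had the largest of these interactions, 7.31 ± 0.69 against 10 weeks and 6.24 without 26B and 80B, with kidney at 8.57 ± 0.87 in the fetus and 12.04 ± 0.17 at 10 weeks. BBOX1, the last enzyme of carnitine synthesis, read 5.29, 4.46, 4.42, 11.83 and 8.82 in fetal lung and 10.92 to 11.35 in fetal kidney, a difference of -4.12 ± 1.29 and of -6.36 ± 0.19 in the repeat. Its fetal call was lost in 8 of the 10 fits that left out 1 array (adjusted p 0.0482 with all arrays and up to 0.108), and its interaction with 10 weeks was 4.67 ± 1.13 with all arrays and 2.43 without 26B and 80B.

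**Figure D5:**
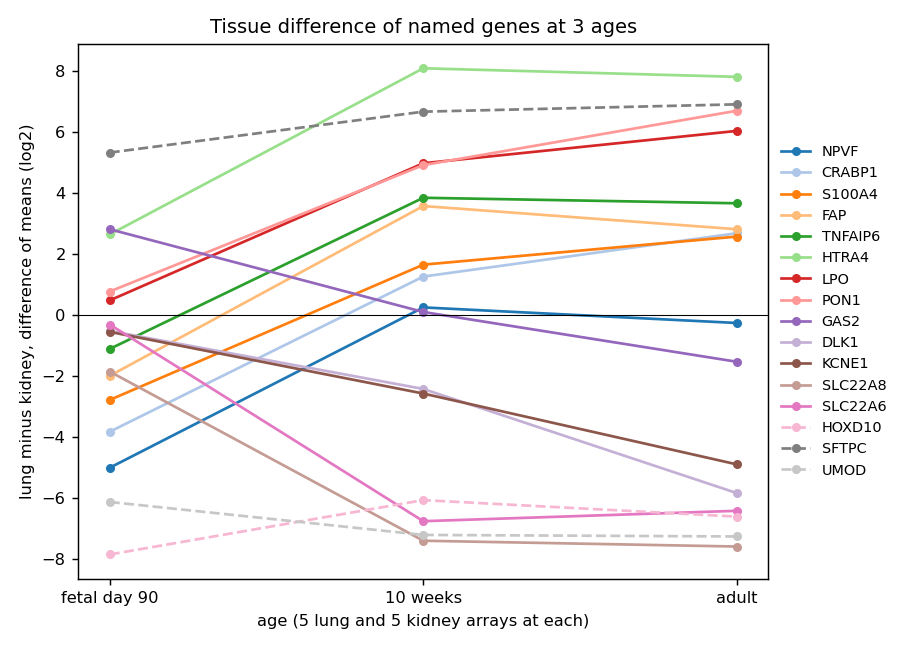
Lung minus kidney difference of group means (log2) for 16 genes at fetal day 90, 10 weeks and in adults, 5 lung and 5 kidney arrays at each age, 1 line per gene. HOXD10, SFTPC and UMOD (dashed) keep the sign and most of the size of their fetal difference, SLC22A6 goes from -0.31 to -6.75 by 10 weeks, and FAP goes from -1.99 to 3.57.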

How the data were processed

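Total RNA was extracted from frozen sheep lung and kidney with Trizol, labelled with biotin and read on a bovine Affymetrix chip, as the protocols in the labels state. The deposited table holds log2 expression values, made with RMA and Partek per the submitters' processing notes, whose versions are not given in the sources used here. It has 24128 probe sets on 30 arrays. Gene names came from the supplied platform annotation: 13318 had 1 symbol and 86 had several, which were left out with the unnamed ones. The 9155 genes were each represented by their brightest probe set on average across the 30 arrays, a choice that matters for the 2913 genes with more than 1. Detection calls, scan dates and batches were not used here, so signal over background is unknown, and the number of arrays limits the precision. No genome positions or sequences are given.

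Arrays were grouped by the tissue and age in their titles. The fetal comparison was fitted with limma 3.58.1 in R 4.3.3 (lmFit, eBayes, two-sided) on the deposited values of the 10 fetal arrays alone, and repeated without lung arrays 26B and 80B. Interactions with later ages used all 30 arrays. P-values were adjusted by Benjamini-Hochberg over the 9155 genes, with a threshold of 0.05. The fit was tested on simulated data with independent noise and the same SD for a gene in every array. It held no array like 26B or 80B, so it cannot show how such arrays affect the calls. P-values measure the spread between arrays of a group, which may be partly technical.

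The 41 gene lists hold 993 symbols, of which 634 were measured. The lists, the genes to be named and the repeat without 26B and 80B were chosen with earlier results of these data known. The named genes were the 10 largest called differences per direction without overlap between arrays and with the same call in the repeat, from each list as many as 4 called members with the smallest p, a fixed set of 38 genes, the 8 largest differences per direction that changed call in the repeat, and the 6 largest interactions per direction with each later age. Names that are only locus identifiers were passed over, some genes that fell under the rule are not described, and AHSG falls outside it. Alternatives were other probe set rules, normalisations, filters, weights, a minimum change of 1 log2 unit, sets of arrays in the fit, label blocks and leaving out each array.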

Additional observations from a re-analysis of the deposited data

Results flagged for a closer look

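In 40 of the 324 groups of 5 arrays read for the 162 named genes, 1 array lay far from the other 4, by the gap to its nearest neighbour as a share of the group's range. About 1 group in 20 does so by chance, and 29 of the 40 were lung array 26B. It was the lowest lung array for genes of lung epithelium, vessels and mesenchyme, with gap shares of 0.901 for AGER, 0.874 for CAV1, 0.807 for LAMP3, 0.871 for SFTPB and 0.734 for SFTPC. The same held for 0.900 in CCL21, 0.917 in CD34, 0.714 in LAMA4, 0.872 in CNN1, 0.861 in MYH11 and MEOX2, 0.774 in PCOLCE2, 0.929 in BMP5, 0.725 in FGF10, 0.832 in GAS2, 0.979 in HOXB4, 0.775 in IGFBP5 and 0.756 in ATP1B1. It was the highest lung array for the macrophage genes CD68 (0.778), CSF1R (0.882) and TYROBP (0.748). For metabolic and tubule genes it was also highest, with 0.737 for CDHR2, 0.774 for CUBN, 0.80 for HAO2, 0.917 for HSD17B4, 0.815 for SDHA and 0.810 for SCNN1A, as it was for FZD4 (0.718) and HOXA10 (0.878). Its liver list mean was 10.71, and the part of liver transcripts in these values was not tested.

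The other 11 lone arrays were spread over 6 arrays. Kidney 10A was highest for CNN1 (0.782), HOXB4 (0.867) and POSTN (0.759), kidney 14A lowest for FGF10 (0.742), HOXA9 (0.781) and LUM (0.756), and kidney 80B lowest for COL11A1 (0.816) and FXYD2 (0.744). Kidney 19A was highest for SLC12A3 (0.755), lung 14A lowest for KCNE1 (0.771) and lung 80B highest for NPVF (0.766).

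The tissue difference at fetal day 90 departed from that at 10 weeks in 2498 genes and from that in adults in 2659, by the interaction test. Among the named genes, the fetal difference lay nearer to lung than at 10 weeks by 7.31 in SERPINA1, 6.44 in SLC22A6, 5.55 in SLC22A8, 4.67 in BBOX1, 4.48 in ARG1, 4.37 in FETUB, 4.28 in ITIH2, 3.01 in APOC3, 2.71 in GAS2, 2.02 in KCNE1 and 1.90 in DLK1. Against adults the same genes gave 6.29, 6.11, 5.74, 4.01, 4.13, 3.43, 3.88, 5.92, 4.34, 4.34 and 5.32. The fetal difference lay nearer to kidney than at 10 weeks in FAP (-5.56), HTRA4 (-5.44), NPVF (-5.24), CRABP1 (-5.08), TNFAIP6 (-4.94), LPO (-4.49), S100A4 (-4.43), PON1 (-4.14) and CYP4B1 (-3.90). Against adults these were -4.80, -5.17, -4.74, -6.50, -4.77, -5.56, -5.35, -5.92 and -5.04. Without 26B and 80B all of these interactions were called except that of APOC3 with 10 weeks (1.68, adjusted p = 0.0745).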

How the results depend on the processing

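Against 1759 calls, array weights gave 4139, leaving out 26B and 80B gave 3676, and a tested minimum change of 1 log2 unit gave 173. That minimum gave 407 in place of 3676 without 26B and 80B, 367 in place of 2498 for the interaction with 10 weeks and 446 in place of 2659 for that with adults. Leaving out each array in turn gave 1323 to 3329 calls for the fetal comparison (highest without lung 26B), 2907 to 3850 without 26B and 80B, and 2332 to 2656 and 2444 to 2915 for the interactions. Apart from the blocks below, other counts stayed within 1.5 times. Averaging every probe set of a gene turned ALB to 1.38 and AHSG to 2.67, since their probe sets disagree. Of the 162 named genes, that averaging took the fetal call from 5, gave 1 a call and reversed the sign of 2. The minimum change of 1 log2 unit took the fetal call from 83 of them.

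Labels 10A, 14A and 80B occur in both tissues. Deviations of same-label arrays correlated at 0.08, 0.13 and 0.25, and at 0.14 and 0.21 for 10A and 14A without 26B and 80B. Not every pair passed 0.1 with all arrays and the labels name no shared animal, so the label was not taken as a pairing. As a random block its estimated correlation was 0.277. With the label as a replicate block over those 6 arrays 2049 genes were called (1969 for the same arrays with no block, chosen after seeing the data). Without 26B and 80B, the block over 10A and 14A gave 2243 calls, and the same 4 arrays with no block gave 1792. With all arrays, lung 10A, 14A and 80B each correlated best with the kidney array of the same label, a hint from the data and not from the design.

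Of the 140 named genes called with all arrays, 118 kept the call without each single array. Signal over background is unknown, which limits what can be said of dim genes.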
